A study of Mus musculus with 8 samples.

Results

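The peroxiredoxins, thioredoxin with its reductase, the glutathione peroxidases and the superoxide dismutases remove superoxide and peroxides from cells. The 10 genes described here are Prdx1, Prdx2, Prdx5, Prdx6, Txn1, Txnrd1, Gpx1, Gpx4, Sod1 and Sod2, chosen by symbol from the 24421 symbols with counts, and all 10 were found. Their RNA was measured in CD4+ T cells that had been sorted from digested knees of arthritic mice. The mice were male, 16 weeks old and had antigen-induced arthritis, in which the joint reacts to an antigen used for immunisation. There were 4 wild-type and 4 Slc7a5 knockout libraries. Slc7a5 encodes the light chain of an amino acid transporter, and the comparison asks how its loss alters T cells at the inflamed joint. All groups shared the arthritis, the sex, the age and the tissue. The labels name no allele, Cre driver, number of cells or pooling of animals, and nothing ties a library to an animal of its own, so the p-values reflect library-to-library spread only, and that spread can be technical.

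Superoxide dismutases convert superoxide to hydrogen peroxide, Sod1 in the cytosol and Sod2 in mitochondria. Peroxiredoxins and glutathione peroxidases then reduce peroxides. Peroxiredoxins are recharged mostly by thioredoxin, which thioredoxin reductase regenerates with NADPH, and glutathione peroxidases by glutathione. In T cells, peroxides also serve as short-lived signals after antigen receptor engagement, and the transcription factor NRF2 raises many of these genes by binding antioxidant response elements. In bulk RNA, fewer cells of a type and less RNA per cell cannot be told apart.

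Library totals ran from 18837650 to 36436923 counts, and 5221 to 10139 genes had a count, with the fewest in knockout replicate 4. Counts of Slc7a5 in wild type were 385, 194, 410 and 0, replicates 1 to 4 in that order, and every knockout library had 0. Genes with a count numbered 10139, 9934, 9815 and 7957 in the same wild-type libraries. At such low counts, a 0 cannot tell a deleted gene from one missed in that library, in either group. Each library, wild-type replicate 4 included, is therefore assigned to its group from its label alone. The 7 T cell markers with a symbol summed to 7340 ± 1233.9 CPM (library-size scaled counts, with TMM factors) in wild type and 6089 ± 908 CPM in knockout (SD, n = 4 each). All 7 had lower estimates in knockout, beside 55% of all genes tested, and 0 were called in edgeR. For 2 of the 7, Cd3e and Cd5, every knockout library lay below every wild-type one, as for 4.62% of all genes tested. Cd4 itself was at 1.78 CPM in knockout replicate 4, although the T cell markers summed to 7245 CPM there. Markers of antigen-presenting cells, led by Cd74, summed to 1218 to 3030 CPM in wild type and to 8741, 9939, 1926 and 10892 CPM in knockout replicates 1 to 4. Of those sums, 94.3% to 99.5% came from Cd74 and 3 class II chains (H2-Aa, H2-Ab1 and H2-Eb1). The other 9 markers of the list summed to 53.1 to 100.6 CPM in wild type and 54.5 to 108.7 CPM in knockout. Among these 9, Adgre1 and Fcgr1 were at 0 in every library, and Itgam and Itgax at 0 in every knockout library. Lyz2 averaged 23.7 ± 1.76 CPM for wild type against 6.47 ± 12.7 CPM for knockout. Other markers went the opposite way. Csf1r had no count in any wild-type library, while knockout replicates 2 and 3 held 44.3 and 21.9 CPM. Flt3 reached 53.3 CPM in knockout replicate 1, against at most 12.7 CPM among wild-type libraries. Cd68 averaged 31.6 ± 11.8 CPM for wild type against 40.7 ± 22.1 CPM for knockout. Red blood cells are rich in Prdx2, but their markers summed to only 16.4 to 62.4 CPM in wild type and 73.6 to 105 CPM in knockout, mostly Bpgm. Bpgm alone averaged 28.2 ± 18.8 CPM for wild type against 83.0 ± 16.9 CPM for knockout. The haemoglobin genes Hba-a1, Hba-a2, Hbb-bs and Hbb-bt had 0 counts in every library, as did Slc4a1. Alas2 had 2 counts, both from knockout replicate 3. Neutrophil markers summed to at most 105 CPM in any library. The part of these cells in the values below was not tested.

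The antioxidant response element was sought in the 250 bases before each start site listed by RefSeq for GRCm38.p6, as TGACNNNGC on either strand. Sequences were found for 9 of the 10 genes, with 14 promoters in all. The motif was in 3 of these 14 promoters (21.4%), 1 each for 3 genes, and in 10.2% of all 32851 promoters of that length. This difference was not tested. The 3 promoters are shown because they are the matches to the NRF2 site among these genes, 5′ to 3′ on the plus strand, with the motif in capitals. In all 3 the motif lies on the strand opposite to the gene. The stretches of Prdx1 and Sod1 end just before the listed start of the gene. That of Txnrd1 lies inside the gene (82833951 to 82897724), before an internal start site, and whether these cells use that site was not tested. 
Prdx1, chr4:116685349-116685598: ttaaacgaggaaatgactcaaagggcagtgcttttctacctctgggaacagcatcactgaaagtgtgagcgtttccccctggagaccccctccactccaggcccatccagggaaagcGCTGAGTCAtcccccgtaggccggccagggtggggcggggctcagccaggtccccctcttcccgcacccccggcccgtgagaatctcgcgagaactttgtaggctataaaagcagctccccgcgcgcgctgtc
Txnrd1, chr10:82858956-82859205: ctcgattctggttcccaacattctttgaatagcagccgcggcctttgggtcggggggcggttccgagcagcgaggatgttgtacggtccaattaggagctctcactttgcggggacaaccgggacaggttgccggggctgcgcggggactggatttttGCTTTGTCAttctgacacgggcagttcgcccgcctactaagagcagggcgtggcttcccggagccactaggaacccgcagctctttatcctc
Sod1, chr16:90220512-90220761: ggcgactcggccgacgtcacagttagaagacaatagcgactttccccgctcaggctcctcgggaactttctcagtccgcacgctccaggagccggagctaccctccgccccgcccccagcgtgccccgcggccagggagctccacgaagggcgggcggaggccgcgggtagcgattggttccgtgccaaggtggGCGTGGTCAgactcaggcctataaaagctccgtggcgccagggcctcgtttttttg
A match is a description of these letters and not a binding site. Across the 8 libraries, the log2 profiles of Prdx1 and Sod1, each centred on its own mean, differed by a root mean square of 0.88, those of Txnrd1 and Sod1 by 2.98 and those of Prdx1 and Txnrd1 by 3.53.

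None of the 10 antioxidant genes passed the test between knockout and wild type. In edgeR's quasi-likelihood test 0 of 10 were called (Benjamini-Hochberg adjusted p = 0.9999 for each), beside 0 of 8489 genes tested (0%). At an unadjusted p under 0.05 there were 0 of 10 members, against 3.84% of all genes tested. DESeq2 called 0 members and 3.63% of 10659 genes, and limma voom called 0 members and 0.0471% of genes. At an unadjusted p under 0.05, limma voom had 1 member, Sod2, beside 12.1% of all genes. In 10 of 10 members the CPM of the groups overlapped, while they did not overlap for 6.14% of all genes tested. Estimates were lower in knockout for 5 members and higher for 5. Their median log2 fold change was −0.04, beside −0.12 over all genes tested, of which 55% had lower estimates. Without knockout replicate 4, 8 estimates were lower and 2 higher, with a median of −0.28, beside −0.08 over all genes. Without replicate 4 labelled wild type, which had no Slc7a5 count, the median was −0.22, beside −0.15 over all genes. The count of calls was 0 in both cases.

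The members fell into 6 genes measured at a similar order of magnitude in every library and 4 genes that were near zero in 1 or 2 libraries. Near zero here means under 5% of the gene's own median CPM over the 8 libraries, a limit set after the values were seen. The highest value inside the limit was 1.11% of the median and the lowest outside it 36.4%. Of the 80 values, 6 were near zero: Txnrd1 in wild-type replicate 4 and, in knockout, Sod2 in replicate 1, Prdx2 in replicate 2 and Prdx5, Txnrd1 and Sod2 in replicate 4.

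**Figure D1:**
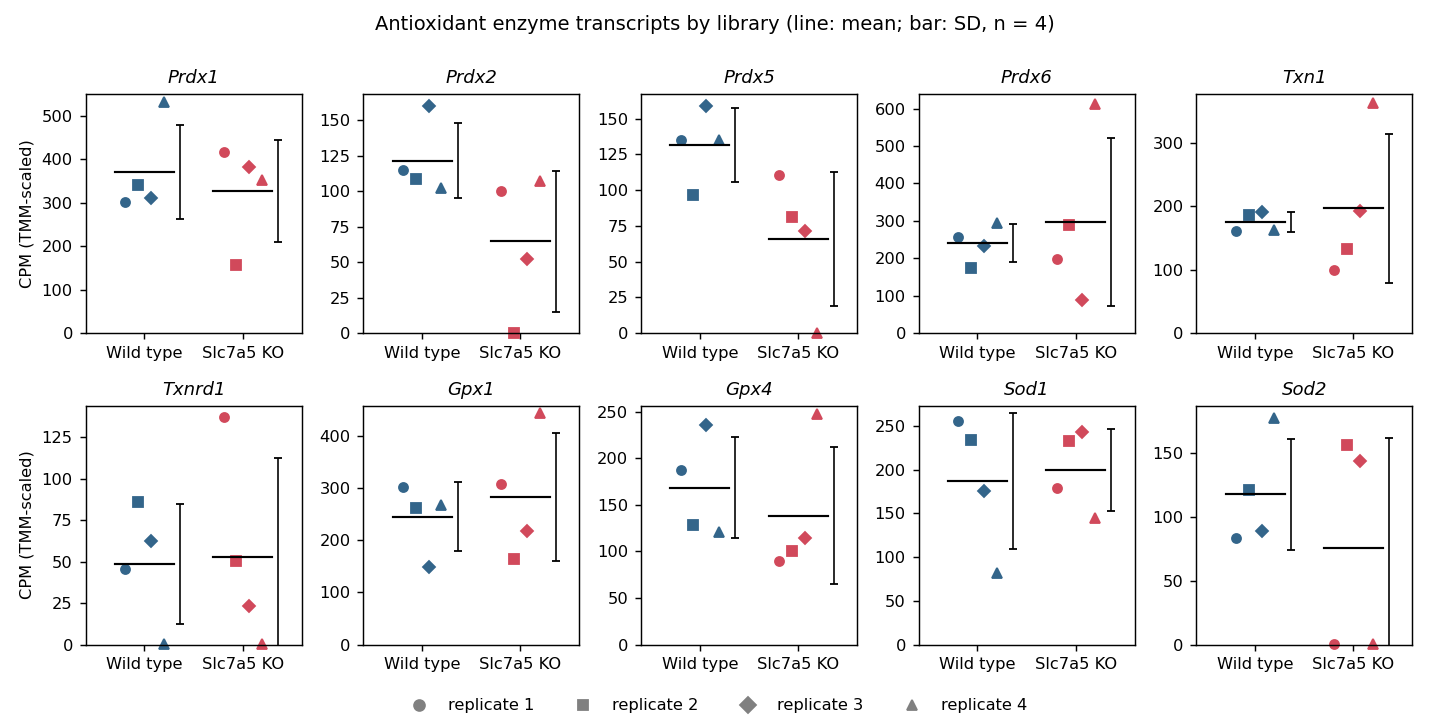
CPM of each antioxidant gene in the 4 wild-type and 4 Slc7a5 knockout libraries, with the replicate number as the symbol, a line at the mean and a bar of 1 SD (bars end at 0). The groups overlap in all 10 panels, and Prdx2, Prdx5, Txnrd1 and Sod2 each have points at or near 0.

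Among the peroxiredoxins, Prdx1, an abundant cytosolic enzyme, had 2823 to 12024 counts in each of the 8 libraries. Its wild-type values in replicates 1 to 4, the order used throughout, were 301, 341, 312 and 531 CPM. Its knockout values were 418, 157, 382 and 353 CPM. Wild-type replicate 4 was the highest and knockout replicate 2 the lowest, and the other 6 libraries lay within 301 to 418 CPM. The means were 371 ± 108 and 328 ± 117 CPM (SD, n = 4 each), with a log2 fold change of −0.18 (SE 0.34, 95% interval −0.92 to 0.56). Its estimate was the most precise of the 10, and its interval spans 0.528-fold to 1.48-fold of wild type. The sign turned without wild-type replicate 4 (0.05) or without knockout replicate 2 (0.03).

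Prdx6 uses a single active cysteine and also repairs oxidised phospholipids. Wild-type libraries held 257, 174, 234 and 295 CPM and knockout libraries 199, 289, 89.4 and 611 CPM. The knockout libraries held both the lowest and the highest value, a 6.84-fold range against 1.69-fold in wild type. Its estimate on the log2 scale was 0.31 (SE 0.49, interval −0.76 to 1.37), and it was −0.33 without knockout replicate 4.

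Prdx2, the close cytosolic relative of Prdx1, measured 115, 108, 160 and 102 CPM in the wild-type libraries. The knockout libraries had 100.1, 0, 52.1 and 107 CPM. Only knockout replicate 4, of the knockout libraries, reached the wild-type range. The 0 in knockout replicate 2 stood beside 2058 to 5210 counts in 6 of the other 7 libraries and 1308 in knockout replicate 3. The means were 121 ± 26.4 and 64.9 ± 49.8 CPM, with a log2 fold change of −0.90 (SE 1.29, interval −3.71 to 1.90). Without knockout replicate 2 the estimate was −0.51. The exact permutation p of its CPM was 0.0571 (n = 4 each), and 0.534 adjusted over all genes tested.

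Prdx5, which acts in mitochondria, peroxisomes and cytosol, showed the same kind of pattern in other libraries. Wild-type values were 135, 96.6, 159 and 135 CPM. Knockout values were 110, 81.0, 71.2 and 0.0522 CPM, where replicate 4 had 1 count. Knockout replicate 1 lay inside the wild-type range and the other 3 knockout libraries below it. Knockout over wild type gave a log2 fold change of −1.001 (SE 1.17, interval −3.55 to 1.545), and −0.60 without knockout replicate 4. Its exact permutation p was also 0.0571 (n = 4 each, adjusted 0.534). Exons of Prdx2 overlap those of Junb and Rnaseh2a, and exons of Prdx5 those of Trmt112, so without a known strand setting shared reads cannot be told apart.

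Txn1, the cytosolic thioredoxin that reduces peroxiredoxins, was the steadiest of the 10 genes among wild-type libraries. It was at 161, 187, 190 and 163 CPM there, a coefficient of variation of 8.87%. In knockout it was at 99.3, 132, 193 and 363 CPM, a coefficient of variation of 59.5%. The first 2 values lay below all wild-type libraries and the last above them all. The means were 175 ± 15.6 and 197 ± 117 CPM, with a log2 fold change of 0.17 (SE 0.43, interval −0.77 to 1.10). The estimate was −0.32 without knockout replicate 4.

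Txnrd1, the cytosolic selenoprotein that regenerates thioredoxin, was the scarcest member in CPM. In the wild-type libraries it measured 45.4, 85.8, 62.2 and 0.530 CPM, and in the knockout libraries 137, 50.4, 23.1 and 0.105 CPM. The 2 near-zero values, of 12 and 2 counts, came from the replicate numbered 4 of each group, and the remaining libraries held 581 to 3252 counts. The log2 fold change of 0.12 had an SE of 1.64 and an interval from −3.46 to 3.70, so a change inside that interval was not detectable at this spread. It was −0.98 without knockout replicate 1 and 0.10 without both libraries numbered 4.

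Gpx1, the abundant glutathione peroxidase of cytosol and mitochondria, was at 302, 262, 149 and 268 CPM in wild type. Its knockout values were 309, 164, 218 and 444 CPM. Knockout replicate 4 was the highest library and wild-type replicate 3 the lowest, and the others were interleaved. Its log2 fold change was 0.21 (SE 0.37, interval −0.60 to 1.02), and −0.11 without knockout replicate 4.

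Gpx4 reduces lipid peroxides in membranes and protects T cells from ferroptosis. Its wild-type levels were 188, 128, 236 and 121 CPM, and its knockout levels 90.2, 100.8, 114 and 248 CPM. In knockout, 3 libraries lay below every wild-type library and replicate 4 above every one. The estimated log2 fold change was −0.28 (SE 0.46, interval −1.28 to 0.71). Without knockout replicate 4 it was −0.74. Without both libraries numbered 4 it was −0.87, the 1 member at an unadjusted p under 0.05 in that fit, beside 7.08% of all genes. With an offset for transcript GC content it turned to 0.77, while the median of all genes moved from −0.12 to 0.17.

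Sod1, the copper and zinc enzyme, varied more in wild type than in knockout, unlike the other members with counts in every library. Wild-type libraries held 256, 234, 176 and 82.1 CPM and knockout libraries 179, 233, 243 and 144 CPM, with coefficients of variation of 41.5% and 23.3%. That difference in spread was not tested. Between the groups the log2 fold change was 0.10 (SE 0.41, interval −0.80 to 0.99), and −0.15 without wild-type replicate 4.

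Sod2, the mitochondrial manganese enzyme and a target of NF-kappaB, was present or nearly missing in knockout. It was at 83.5, 121, 88.9 and 178 CPM in wild type. Knockout replicates 2 and 3 were at 157 and 144 CPM, inside the wild-type range, and replicates 1 and 4 at 0.126 and 0.157 CPM, 3 counts each. The log2 fold change was −0.65 (SE 1.55, interval −4.05 to 2.76). It was −0.23 without knockout replicate 1, −0.24 without replicate 4, and 0.02 without both libraries numbered 4.

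**Figure D2:**
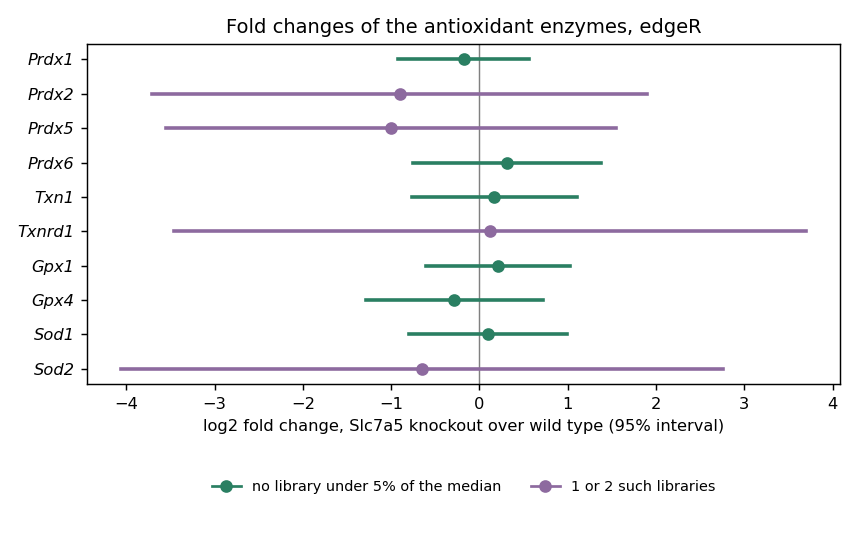
Log2 fold change of each antioxidant gene, Slc7a5 knockout over wild type (n = 4 each), with its 95% interval from edgeR. All 10 intervals cross 0, and those of the 4 genes with near-zero libraries (purple) are the widest.

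Estimates were less precise for the genes with near-zero libraries. The SE ran from 0.34 to 0.49 log2 units for the 6 genes without such a library and from 1.17 to 1.64 for the 4 genes with one. Over all genes tested the median SE was 1.70, and it was 0.80 for the 2910 genes whose median CPM lay in the members' range of 47.9 to 347. Among those 2910 genes, 37.7% had at least 1 near-zero library, beside 4 of 10 members (40%). The share of these genes near zero was 31.6% in knockout replicate 4, 6.56% in knockout replicate 2, 2.51% in wild-type replicate 4 and 1.44% in knockout replicate 1. The other 4 libraries were at 0.447% or below, and no member was near zero in them. All 6 near-zero member values lay in the 4 libraries with the highest such shares.

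**Figure D3:**
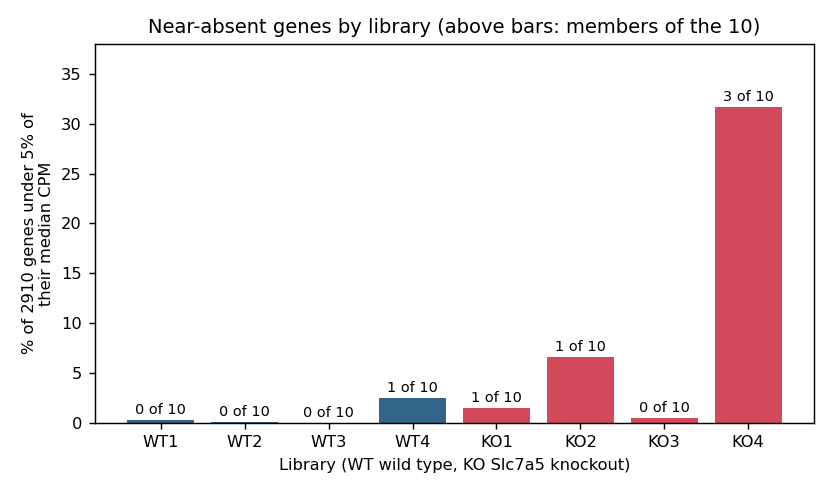
Percent of the 2910 genes of like median CPM that were under 5% of their own median, by library, with the number of antioxidant genes of the 10 above each bar. Knockout replicate 4 stands highest at 31.6% with 3 of 10 members.

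The sum of the 10 genes was 1806 ± 63.7 CPM in wild type (SD, n = 4). In knockout it was 1641, 1364, 1530 and 2270 CPM in replicates 1 to 4, so that 3 libraries lay below all wild-type sums of 1738 to 1875 CPM and replicate 4 above them. That library also held the highest sum of Cd74 and class II chains (10832 CPM) and the fewest detected genes, and their part in the value was not tested. The other 9 antigen-presenting cell markers summed to 59.7 CPM there, inside the wild-type range, with 5 of them at 0.

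To order the genes by level, CPM was divided by the length of each gene's merged exons, which understates genes with long, little-used ends such as Sod2 at 10.01 kb. Gpx1 (183 ± 64.9 CPM per kb) and Txn1 (177 ± 74.4) stood first over the 8 libraries, and each was above the other in 4. Prdx1 (115 ± 35.1) and Gpx4 (88.9 ± 35.9) followed, again with 4 libraries each way. Next came Prdx6 (55.9 ± 32.02), Sod1 (48.7 ± 15.01) and Prdx5 (46.0 ± 23.2), which did not differ beyond their spread, then Prdx2 (30.6 ± 15.6). Sod2 (9.65 ± 6.75) and Txnrd1 (7.14 ± 6.46) were lowest, and their values per kb overlapped. Gpx1 or Txn1 ranked first in all 8 libraries.

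By position in GRCm38.p6, Prdx1 lies on chromosome 4 from 116685599 to 116700000 and Txn1 on the same chromosome from 57943373 to 57956411. Chromosome 10 carries Gpx4 from 80047166 to 80056439 and Txnrd1 from 82833951 to 82897724. Sod1 lies on chromosome 16 from 90220762 to 90226333 and Sod2 on chromosome 17 from 13007839 to 13018119. Transcripts at least 95% identical over at least 300 bases exist for Prdx1, Prdx2, Txn1, Gpx4 and Sod1 in GENCODE, such as Gpx4-ps2 (99.7% over 733 bases) and Gm21399 for Prdx1 (98.3% over 597 bases). None of these 7 copies was among the symbols used here, and reads that map to both places could have been lost or assigned to the named gene.

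Genes with the most similar profile were sought among 2774 genes with counts in all 8 libraries and a mean of at least 50 CPM. Likeness was the root mean square difference of log2 CPM, centred on each gene's mean, over the 8 libraries. For Prdx1 these were Mir684-1, a symbol listed for a microRNA gene (0.15), and Sumo2 (0.21). For Txn1 they were the glycolytic enzyme gene Pfkp (0.15) and the respiratory chain gene Cox7a2 (0.17). Mrpl48 was closest to Gpx1 (0.17) and the GTPase gene Rac1 to Sod1 (0.17). Within the 10 genes, Txn1 and Gpx4 were the most alike (0.36), followed by Prdx1 and Gpx1 (0.48).

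Of 93 further genes in 7 lists of the antioxidant pathways, 67 were tested and 0 passed in edgeR, where 30 estimates were higher and 37 lower. Their median on the log2 scale was −0.11. At an unadjusted p under 0.05 there were 5 (7.46%), beside 3.84% of all genes tested. Of the 5, 2 were higher in knockout (1.87% of all genes) and 3 lower (1.97%). The groups did not overlap for 4 of 67 (5.97%), beside 6.14% of all genes tested. Those 4 were Tmx1 and Slc3a2 on the higher side, as for 1.52% of all genes, and Mafk and Ncf4 on the lower, as for 4.62%.

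In the thioredoxin list (11 tested, 6 with higher estimates) the 2 genes at an unadjusted p under 0.05 were both higher in knockout. Txn2, the mitochondrial thioredoxin, measured 192, 136, 119 and 136 CPM in wild-type libraries, against 247, 183, 311 and 399 CPM in knockout. Knockout replicate 2 alone fell inside the wild-type range. Its log2 fold change was 0.97 (SE 0.35, interval 0.20 to 1.73), with an unadjusted p of 0.0175 and an adjusted p of 0.836 in edgeR, so it did not pass. Tmx1, a thioredoxin-like membrane protein of the endoplasmic reticulum, measured 34.2, 160, 172 and 54.1 CPM in wild-type libraries, against 197, 172, 274 and 480 CPM in knockout. Knockout replicate 2 and wild-type replicate 3 differed only in the last digits (171.75 against 171.58 CPM), and the groups were otherwise apart. Its log2 fold change was 1.42 (SE 0.56, adjusted p = 0.9999 in edgeR) and 0.80 without both libraries numbered 4. Park7, a redox-sensing protein and the most abundant of the list, was at 330 ± 44.2 and 346 ± 99.7 CPM.

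Among the other peroxidases, Prdx3, the mitochondrial peroxiredoxin that Txn2 serves, measured 65.65, 75.8, 57.95 and 29.5 CPM in wild-type libraries and 59.0, 82.85, 123 and 155 CPM in knockout. Its log2 fold change of 0.87 (SE 0.71) did not pass (adjusted p = 0.9999 in edgeR), and the estimate was 0.39 without both libraries numbered 4. Ccs, the copper chaperone of Sod1, was at 93.8 ± 22.7 and 54.7 ± 36.7 CPM, with 3.08 CPM in knockout replicate 4. Its log2 fold change was −0.78 (SE 0.94), and −0.40 without that library. Prdx3 and Txn2 were both highest in knockout replicate 4, the library in which Prdx6, Txn1, Gpx1 and Gpx4 were highest too. In that library 31.6% of the 2910 genes in the members' CPM range were near zero. The share of all genes that were highest there was not counted.

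**Figure D4:**
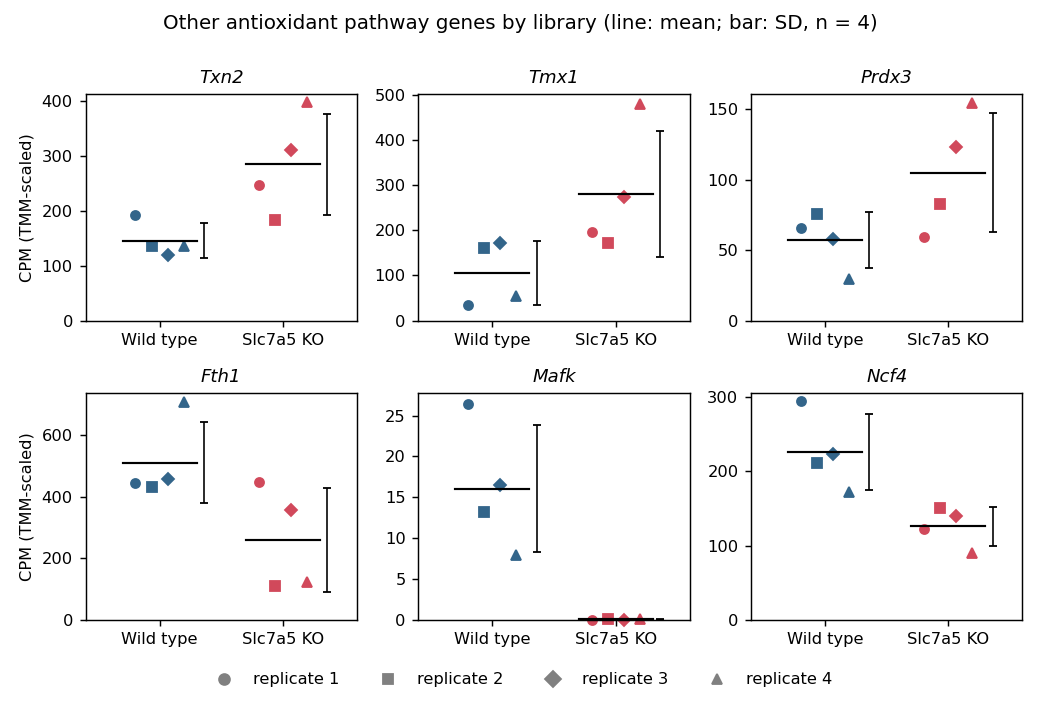
CPM of 6 further antioxidant pathway genes by library, drawn as in the plot of the 10 enzymes (symbol for the replicate number, line for the mean, bar for 1 SD, n = 4 each). Txn2 and Tmx1 lie mostly higher in knockout, Ncf4 lower, and Mafk is at or near 0 in every knockout library.

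The NRF2 list (11 tested, 7 with lower estimates) held 2 of the 3 lower genes at an unadjusted p under 0.05. Mafk, a small MAF protein that pairs with NRF2 or BACH factors on DNA, had 952, 364, 537 and 181 counts in the wild-type libraries but 0, 1, 0 and 3 in knockout. It did not pass in edgeR (adjusted p = 0.651) or in limma voom (adjusted p = 0.105), and it passed in DESeq2 (adjusted p = 4.27e-08). Its exact permutation p was 0.0286, and 0.466 adjusted over all genes tested. DESeq2 called 3 of the 84 pathway genes with counts, beside 387 of all 12849 genes with counts (3.63% of the 10659 it gave an adjusted p). Fth1, the ferritin heavy chain that stores iron, measured 445, 432, 458 and 707 CPM in wild-type libraries and 448, 110, 358 and 124 CPM in knockout. Knockout replicate 1 lay inside the wild-type range, and the log2 fold change was −0.97 (SE 0.44, adjusted p = 0.9999 in edgeR). Ftl1, the ferritin light chain, was at 1321 ± 140 and 1185 ± 304 CPM.

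Of the oxidant producers, Ncf4, a cytosolic subunit of the phagocyte NADPH oxidase, was at 295, 212, 223 and 173 CPM in wild type. Its 4 knockout values, 123, 151, 139 and 89.6 CPM, all lay below them. Its log2 fold change was −0.84 (SE 0.36, adjusted p = 0.9999 in edgeR), and −0.15 with the offset for GC content. Rac2, a GTPase of that oxidase and of the T cell cytoskeleton, was at 1472 ± 352 and 1030 ± 493 CPM, and Cyba, the membrane subunit, at 849 ± 246 and 630 ± 94.0 CPM. Outside the oxidant producers, DESeq2 called Gstm5, a glutathione transferase gene, lower in knockout. Gstm5 had 1387 and 972 counts in wild-type replicates 1 and 2 and 0 in the other 6 libraries.

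In the glutathione, selenoprotein and NADPH lists 0 of 35 tested genes were called in edgeR, beside 0% of all genes tested. At an unadjusted p under 0.05 in that test there were 0 of the 35, beside 3.84% of all genes tested. Glrx, the glutaredoxin that uses glutathione to reduce proteins, was at 606 ± 109 and 621 ± 154 CPM, with a log2 fold change of 0.04 (SE 0.24, interval −0.48 to 0.56). The selenoprotein Selenow, listed under an older symbol, was at 567 ± 73.8 and 485 ± 98.6 CPM, and Selenok, a selenoprotein of the endoplasmic reticulum, at 399 ± 64.5 and 475 ± 133 CPM. In the NADPH list, Taldo1, a pentose phosphate enzyme, averaged 170 ± 16.9 CPM in wild-type libraries, while the knockout libraries had 202, 204, 74.4 and 0 CPM. Me2, the mitochondrial malic enzyme, was at 230 ± 42.9 and 145 ± 65.5 CPM, a log2 fold change of −0.66 (SE 0.39). For Me2 it was −1.01 without knockout replicate 1 (unadjusted p = 0.0263, adjusted p = 0.476 in edgeR) and −0.31 with the offset for GC content. In the fit without knockout replicate 1, 729 of 9122 genes were at an unadjusted p under 0.05. With all 8 libraries the adjusted p in edgeR was 0.9999 for each of these 5 genes.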

How the data were processed

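RNA of CD4+ T cells sorted from arthritic mouse knees was sequenced in 4 wild-type and 4 Slc7a5 knockout libraries. The authors deposited unnormalized read counts per gene, 24421 symbols in all. Per the submitters' processing notes, the tools included HISAT2 2.1.0 and featureCounts as well as edgeR 3.28.1, and the build was mm10. Annotation, strand setting and duplicate handling are not given in the sources used here. 

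From the counts, genes with low values were removed with filterByExpr (minimum count 10, minimum total 15) and libraries were scaled by TMM. Genotype was tested with edgeR 4.0.16 (quasi-likelihood test, robust) in R 4.3.3. Benjamini-Hochberg adjustment ran over all 8489 genes tested, with a threshold of 0.05. Standard errors (SE) were derived from the log2 fold change and its F statistic, and 95% intervals use the degrees of freedom of that fit. The CPM of each gene was also compared by a two-sided exact permutation test over libraries, whose smallest possible p is 0.0286, adjusted over all genes tested. The scripts were tested on simulated counts. At an assumed dispersion (spread between libraries beyond counting) of 0.1, edgeR called 31% of 2-fold and 99% of 4-fold changes, with 3 false calls. At the dispersion fitted to these data it called 0% of 2-fold and 1% of 4-fold changes, with 0 false calls. A count of 0 called here therefore does not show that changes of these sizes were absent.

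The members and gene lists were chosen with earlier results of these data known. Named genes were the 10 members and, of 7 pathway lists, genes at an unadjusted p under 0.05 and the 2 tested genes with the highest mean CPM. For each member the 2 genes with the most similar profile were also found, leaving out predicted gene models. Near-identical copies were sought with BLAST in GENCODE M21 transcripts (at least 95% identity over at least 300 bases). Alternatives were no filter, a stricter filter (50 counts in 4 libraries), 3 other scalings, DESeq2 1.42.0, limma voom 3.58.1, the replicate number as a block, an offset for transcript GC content (known for 8200 genes, 96.6%) and each library left out. Leaving out both libraries numbered 4 was added after seeing the data. A result for 1 pathway gene is not reported here.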

Additional observations from a re-analysis of the deposited data

Results flagged for a closer look

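Gpx4 in knockout replicate 4, at 248 CPM, stood apart from the other 3 knockout libraries (90.2, 100.8 and 114 CPM). Its gap to the nearest library was 0.848 of the group's range, above Dixon's critical value for 4 samples. It was the 1 value so marked among 20 groups of 4 libraries, and chance marks about 1 in 20.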

How the results depend on the processing

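The count of members called was 0 in all 19 fits run, and that over all genes was 0 in edgeR under every filter, scaling, replicate block, GC offset and left-out library; DESeq2 called 387 genes and limma voom 4. Of the 84 pathway genes with counts DESeq2 called 3, beside 387 of all 12849 genes with counts (3.63% of the 10659 it gave an adjusted p). The cause of these differences was not tested. Leaving out each library in turn gave log2 fold changes from −0.32 to 0.046 for Prdx1, −0.33 to 0.61 for Prdx6, −0.32 to 0.39 for Txn1, −0.98 to 0.52 for Txnrd1, −0.11 to 0.37 for Gpx1 and −0.15 to 0.28 for Sod1. Signs held for Prdx2 (−1.28 to −0.51), Prdx5 (−1.37 to −0.60), Gpx4 (−0.74 to −0.07) and Sod2 (−1.31 to −0.23). Park7 ran from −0.10 to 0.25 and Glrx from −0.16 to 0.17. In limma voom the sign turned for Prdx6 (−0.12), Txn1 (−0.040), Txnrd1 (−0.98) and Park7 (−0.022), and the estimates of Prdx2, Prdx5 and Sod2 moved to −3.32, −3.00 and −4.41. With total counts only it turned for Sod1 (−0.00013), Park7 (−0.027) and Glrx (−0.036), and with upper quartile scaling for Park7 (−0.036) and Glrx (−0.069). Without both libraries numbered 4 it turned for Prdx6 (−0.23), Txn1 (−0.36), Gpx1 (−0.066), Sod1 (−0.041), Sod2 (0.022), Park7 (−0.19), Glrx (−0.038) and Selenok (−0.00196). The GC offset moved the median of all genes from −0.12 to 0.17 and that of the members from −0.04 to 0.46, moved Prdx2 to −0.15, Prdx5 to −0.46, Prdx6 to 1.13, Txn1 to 0.91, Gpx1 to 1.16 and Sod1 to 0.69, and turned the sign of Gpx4 (0.77), Ftl1 (0.74), Rac2 (0.34) and Cyba (0.52).

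The replicate block turned Txn1 to −0.016 and Txnrd1 to −0.76, and Prdx2, Prdx5 and Sod2 were at −1.64, −1.58 and −4.40 with it; 0 genes were called. Deviations of same-numbered libraries correlated at −0.04, 0.03, −0.01 and −0.02 over abundant genes for numbers 1 to 4. These values cannot show whether same-numbered libraries were handled together. Only knockout replicate 2 correlated best with its own number, at 0.03, and no wild-type library did. The median of the members was −0.29 in limma voom (all genes −1.28), −0.30 with the block (all genes −0.68), −0.22 with wild-type replicate 4 left out (all genes −0.15) and −0.28 with knockout replicate 4 left out (all genes −0.08). The members near zero in 1 or 2 libraries had the widest intervals, but a near-zero value itself adds to the spread from which the interval is computed.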

Other observations

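Regulators of these enzymes that the naming rule did not reach were looked at after their values were seen. Txnip, which binds and inhibits thioredoxin, had 1245 to 4104 counts in the wild-type libraries but only 1 and 0 in knockout replicates 1 and 2, with 2197 and 1241 in knockout replicates 3 and 4. Nfe2l2, which encodes NRF2, ran over 59.6, 33.4, 29.8 and 26.5 CPM in the wild-type libraries, against 59.8, 103, 58.2 and 144 CPM in knockout, and the groups overlapped. Keap1, the adaptor that marks NRF2 for degradation, had 1450, 1027, 2849 and 22 counts in wild type and 1111, 1, 1847 and 0 in knockout. Gsr, the glutathione reductase, had counts in all libraries except knockout replicate 4. Slc7a11, the cystine transporter chain, had at most 2 counts in any library. None of the 4 tested genes among these passed in edgeR (adjusted p = 0.9999 for each).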
